A study of Mus musculus with 6 samples.

Results

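The subunits of the oxidative phosphorylation machinery were followed in regulatory T cells (Tregs) with and without Cre-mediated deletion of Junb, whose product JunB is a partner in the dimeric transcription factor AP-1. Members were all protein-coding genes whose GENCODE M21 symbols begin with Ndufa, Ndufb, Ndufc, Ndufs, Ndufv, Sdha to Sdhd, Uqcr, Cox4 to Cox8 or Atp5, with the assembly factors left out, and the mt-Nd, mt-Co, mt-Cytb and mt-Atp genes. This gave 98 genes of the 53379 in the count tables, 85 encoded in the nucleus and 13 on the mitochondrial chromosome. Complex I had 38 nuclear and 7 mitochondrial members, complex II 4 nuclear members, complex III 8 and 1, complex IV 18 and 3, and complex V 17 and 2.

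RNA of 3 libraries labelled bKO, of genotype Foxp3YFP-CrexJunbFlox/Flox, was compared with RNA of 3 libraries labelled WT, of genotype Foxp3YFP-CrexJunb+/+. All mice were C57BL/6, were 3 months old and carried the Cre allele, which is expressed with YFP from the Foxp3 locus, so that floxed Junb is removed in cells that have switched on Foxp3. Tregs, the CD4 T cells that express FOXP3 and restrain immune responses, were sorted by flow cytometry with a gate that the labels leave unnamed. Nothing in the labels ties the 3 libraries of a genotype to 3 separate animals. The p-values below therefore set the difference between genotypes against the spread of these libraries, and that spread may be technical. The study asked which genes depend on JunB in Tregs.

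Oxidative phosphorylation takes electrons from NADH and succinate, passes them through complexes I to IV to oxygen, pumps protons across the inner mitochondrial membrane and lets them back through complex V, which makes ATP. Complex II is built from nuclear genes alone, and the other complexes combine a small core made in the mitochondrion with many subunits imported from the cytosol. Tregs are known to rely on mitochondrial respiration more than effector T cells do, and loss of respiratory chain function in Tregs is known to impair suppression in mice.

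Gene counts summed to between 33784183 and 41231173 per library, and the libraries of a genotype had a coefficient of variation of 51.0% (common dispersion 0.260). Junb, the targeted gene, had 57.1, 57.3 and 49.6 CPM in the bKO libraries and 87.1, 77.5 and 89.5 CPM in the WT libraries. All 3 bKO libraries lay below all 3 WT libraries, with a log2 difference of -0.63 (SE 0.13) that missed the edgeR threshold (adjusted p = 0.9999) and passed that of DESeq2 (adjusted p = 0.00417, against 0.617 to 0.99999 over the other alternatives). The labels do not name the floxed stretch of Junb. All 10 Treg markers had a lower mean in bKO, with a summed level of 1092 to 2435 CPM in bKO and 2300.1 to 2562 CPM in WT. Markers of other cells were present in both genotypes, and none of the markers was at 0 in all libraries. B cell markers summed to 2811 to 6314 CPM in bKO and 1920.2 to 8468 CPM in WT (7 of 8 with a higher mean in bKO), and myeloid markers to 509 to 1082 CPM in bKO and 173 to 1002 CPM in WT (8 of 8). Erythroid markers summed to 77.0 to 7672 CPM in bKO and 106 to 2768 CPM in WT (6 of 6 with a higher mean in bKO). Library WT replicate 3 stood apart in the genes described here, and results are therefore also given without it.

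The genes were detected at very different levels. Levels are given between genes in TPM, which correct for transcript length and library size, and between libraries in CPM, which correct for library size alone. The 13 mitochondrial genes summed to 17461, 18292 and 18817 TPM in bKO and 19522, 17510.4 and 13724 TPM in WT, and the 85 nuclear genes to 9168, 8549.5 and 9049.7 TPM in bKO and 8989, 8567 and 10116 TPM in WT. The mitochondrial sum was the larger in every library. All 13 mitochondrial genes and 79 nuclear genes passed the filter on low counts and were tested among 20475 genes. Of the remaining 6, Ndufa4l2, Cox4i2, Cox7a1, Cox7b2, Cox8b and Cox8c, none reached 1 CPM in a library.

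**Figure D1:**
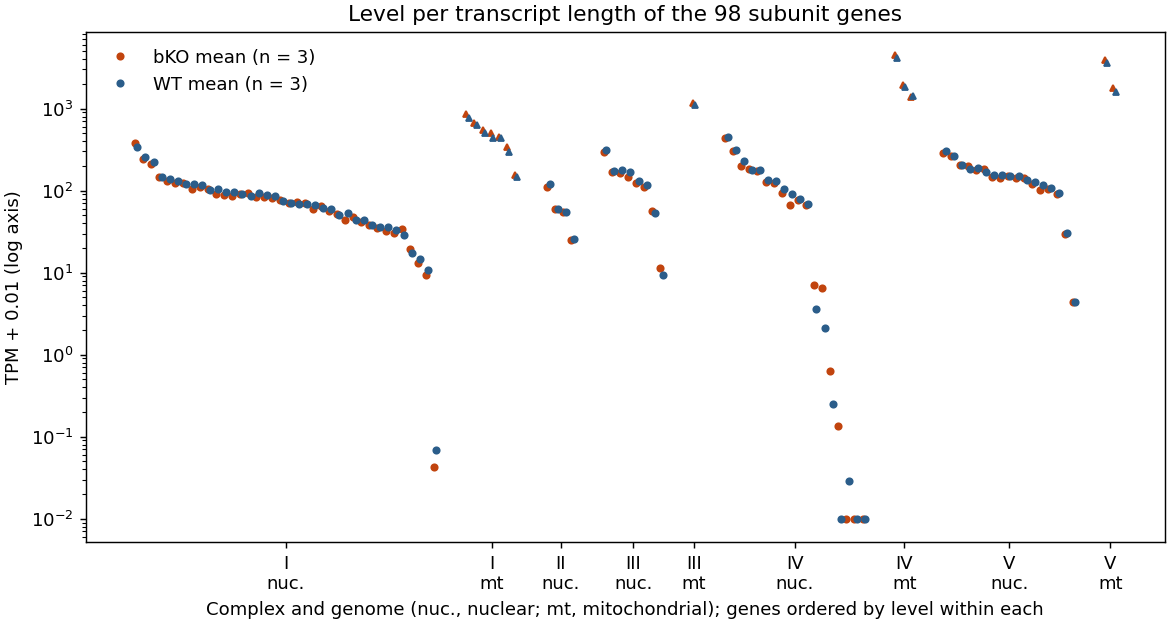
Mean level per length of the 98 members in TPM plus 0.01 (log axis) by complex and genome, with the bKO mean left of the WT mean of each gene (3 libraries each), circles for nuclear and triangles for mitochondrial genes. The top gene of complexes I, III, IV and V is a mitochondrial one, such as mt-Co3 at 4446 TPM in bKO and 4136 TPM in WT, and the tissue isoforms lie at the bottom of complex IV.

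Among the mitochondrial genes, mt-Co3, a core subunit of cytochrome c oxidase, had the highest level per length, at 4446 ± 62.0 TPM in bKO and 4136 ± 459 TPM in WT (mean ± SD, n = 3 each). mt-Atp6, which forms the proton path of ATP synthase, followed at 3939.8 ± 51.6 TPM in bKO and 3627 ± 689 TPM in WT, and the SD of these neighbours overlapped in WT. mt-Co2, which receives electrons from cytochrome c, stood at 1953 ± 192 TPM in bKO and 1832 ± 393 TPM in WT. mt-Atp8, a small membrane subunit of ATP synthase, stood at 1771 ± 50.0 TPM in bKO and 1580.1 ± 369 TPM in WT, mt-Co1, the catalytic subunit of cytochrome c oxidase, at 1375 ± 256 TPM in bKO and 1405 ± 410.1 TPM in WT, and mt-Cytb, the core of complex III, at 1169 ± 106 TPM in bKO and 1109.9 ± 313 TPM in WT. These 3 did not differ from one another beyond their spread in WT. In bKO the SD of mt-Atp8 did not overlap those of mt-Co1 and mt-Cytb, which overlapped each other. The 7 complex I genes came below, from mt-Nd1 at 868 ± 79.8 TPM in bKO and 770.0 ± 82.7 TPM in WT to mt-Nd4l at 154 ± 27.4 TPM in bKO and 145 ± 49.7 TPM in WT.

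mt-Atp8 and mt-Atp6 share bases of 1 transcript, so a read in the shared stretch fits both genes, and their counts may not be independent. No counting option was given, so it is not known whether such a read was counted for both genes or left out. The stretch is shown because it sets what a count of either gene can mean. It is printed from the GENCODE transcripts on GRCm38 (chrM:7907-7989, plus strand), with the 43 shared bases in capitals and 20 bases on each side in lower case.
mt-Atp8 and mt-Atp6: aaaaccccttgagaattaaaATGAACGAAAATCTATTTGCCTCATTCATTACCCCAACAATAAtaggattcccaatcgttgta

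None of the mitochondrial subunit genes passed the test between the genotypes, and all 13 fitted differences were at or slightly above 0 (12 of 13 with library totals, with no filter or with a filter of 1 CPM, where mt-Co1 turned to -0.0023 to -0.0030, and with the set of libraries as a term, where mt-Nd3 turned to -0.03, and 12, 11 and 9 of 13 without bKO replicate 2, WT replicate 2 and WT replicate 3). The median log2 difference (bKO minus WT) over the 13 genes was 0.14, from 0.00 for mt-Co1 to 0.24 for mt-Nd6, against a median of 0.01 over all 20475 tested genes, of which 50.9% had a positive and 49.1% a negative difference. The 13 genes lie on the same chromosome, and WT replicate 3 was the lowest library for 10 of them. Their signs are therefore not 13 independent results. edgeR called 0 of 13 genes at an adjusted p under 0.05, as over all tested genes (0% called, 0 of 20475), and 0 of 13 at an unadjusted p under 0.05, where 2.88% of all genes passed. DESeq2 and limma-voom also called 0 of 13 (0 of 13 at an unadjusted p under 0.05 by either), while DESeq2 called 63 of 23198 genes (0.272%) and limma-voom 0 over all genes (3.66% at an unadjusted p under 0.05). Every one of the 13 intervals lay within a 2-fold difference in either direction, that is between -1 and 1 on the log2 scale, as did 44.5% of those of all tested genes and 95.4% of those of the 3682 tested genes in the same range of 49.3 to 3759.9 CPM. In bulk RNA such as this, fewer cells of a type and less RNA per cell cannot be told apart.

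mt-Nd1, a membrane subunit at the ubiquinone site of complex I, had 933, 864 and 1015 CPM in the bKO libraries and 857, 820.0 and 766 CPM in the WT libraries. It was the only mitochondrial gene whose genotypes did not overlap, with every bKO library above every WT library, as in 3.68% of all tested genes and 2.28% of those in the CPM range of the mitochondrial genes. Its log2 difference was 0.20 (SE 0.11, interval -0.05 to 0.45, edgeR unadjusted p = 0.095, adjusted p = 0.9999) and 0.16 without WT replicate 3.

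The proton-pumping membrane subunits mt-Nd2, mt-Nd4 and mt-Nd5 overlapped between the genotypes. mt-Nd2 had 575, 492 and 515 CPM in bKO and 544, 468 and 476 CPM in WT, a difference of 0.09. mt-Nd4 had 863, 841 and 866 CPM in bKO and 923, 747 and 643 CPM in WT, a difference of 0.15. mt-Nd5 had 666, 695 and 732 CPM in bKO and 684, 646 and 466 CPM in WT, a difference of 0.22. In mt-Nd4 and mt-Nd5 the 3 bKO libraries lay close together, and WT replicate 3 was the lowest of all 6.

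The small complex I genes showed a wider spread. mt-Nd3 had 286, 226 and 275 CPM in bKO and 249.7, 195 and 299 CPM in WT, and mt-Nd4l had 45.4, 59.4 and 49.5 CPM in bKO and 60.0, 49.9 and 31.8 CPM in WT. WT replicate 3 was the highest library for mt-Nd3 and the lowest for mt-Nd4l. mt-Nd6, the only one of the 13 genes annotated on the minus strand, had 312, 246 and 334 CPM in bKO and 270.2, 211 and 272 CPM in WT, with the largest difference of the set (0.24, SE 0.16, interval -0.14 to 0.63).

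mt-Cytb, which carries the ubiquinol sites of complex III, had 1426, 1556 and 1537 CPM in bKO and 1692, 1457 and 1035 CPM in WT. Its difference of 0.11 turned to -0.07 without WT replicate 3. In complex IV, mt-Co1 had 2048, 2749 and 2360.0 CPM in bKO and 2998, 2359.6 and 1797 CPM in WT. The genotype means of mt-Co1 were the same to the printed digits (difference 0.00, interval -0.48 to 0.48), while the WT libraries spanned its lowest and highest values. mt-Co2 had 1423, 1483 and 1607 CPM in bKO and 1582, 1429 and 1128 CPM in WT, and mt-Co3 had 4140.4, 3763 and 3906 CPM in bKO and 3799, 3589.7 and 3362 CPM in WT. Both overlapped between genotypes, with differences of 0.12 and 0.14.

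The ATP synthase genes behaved like the rest. mt-Atp6 had 3207, 2891 and 2993 CPM in bKO and 3063, 2800.1 and 2303 CPM in WT, and mt-Atp8 had 416, 401 and 406 CPM in bKO and 421, 356 and 287 CPM in WT. Differences were 0.15 and 0.20, and WT replicate 3 was again the lowest library in both.

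**Figure D2:**
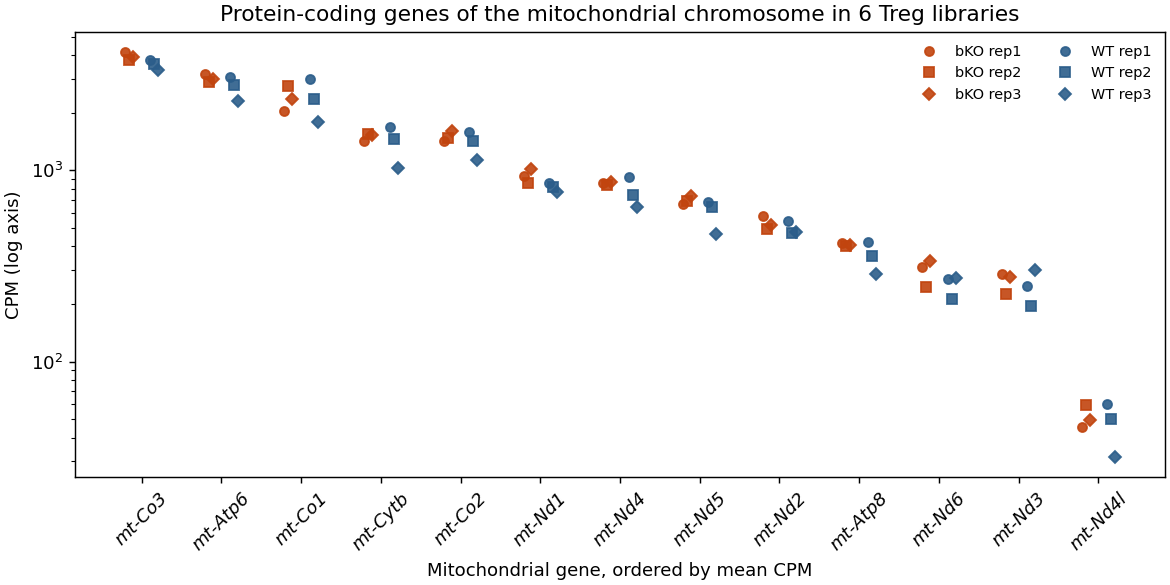
CPM (log axis) of the 13 mitochondrial subunit genes, ordered by mean CPM, with 1 point for each library, bKO left of WT and the replicate shown by the symbol. Points of the genotypes overlap except for mt-Nd1, and WT replicate 3 is the lowest library for 10 of the 13 genes, as for mt-Cytb at 1035 CPM in WT replicate 3 against 1692 CPM in WT replicate 1.

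The small excess of the mitochondrial set in bKO was smaller without 1 WT library. Mitochondrial subunit genes took 1.60, 1.64 and 1.67% in bKO and 1.73, 1.53 and 1.26% in WT of all counts, a mean of 1.64% ± 0.0340 in bKO and 1.51% ± 0.235 in WT (SD, n = 3 each). The range of the WT libraries enclosed all bKO libraries. The difference in mean share was 0.131 percentage points with all libraries and 0.00714 without WT replicate 3. Without WT replicate 3 the median difference over the 13 genes was 0.05, with 9 of 13 above 0. WT replicate 3 was the lowest library for 10 of the 13 genes, a place it held in 19.9% of all tested genes and 18.6% of those in the same CPM range.

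The mitochondrial rRNAs, which lie on the same chromosome and are not members, did not share that place. mt-Rnr1 had 1412, 1049 and 1243 CPM in bKO and 1790.0, 1077 and 1798 CPM in WT, and mt-Rnr2 had 6676, 5305 and 6793 CPM in bKO and 6135, 5345 and 6815 CPM in WT. Both rRNAs had their highest level in WT replicate 3. The ratio of rRNA counts to subunit counts of the mitochondrial chromosome was therefore highest in WT replicate 3, with 0.495, 0.391 and 0.484 in bKO and 0.462, 0.424 and 0.669 in WT.

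Nuclear copies of the mitochondrial chromosome limit what these counts can show. Of the 13 genes 9 share at least 1 window of 50 bases with the transcript of another gene, and in 5 of them at least 90% of the windows are shared. mt-Co3 and its copy Gm28437 on chromosome 1 differed by at most 2 counts in any library, mt-Co2 and Gm28661 by at most 9, mt-Atp6 and Gm10925 by at most 23, mt-Nd3 and Gm28438 by at most 30, and mt-Nd4l and Gm10222 by at most 44. Reads of such stretches appear at both places, so the counts of these 5 genes and of their copies cannot be told apart. In part this also touches mt-Nd4, with 62.2% of its windows shared, and mt-Co1, with 51.1%. Over all 6 libraries mt-Nd4 had 177587 counts and its copy Gm28439 72016, and mt-Co1 had 518074 and Gm29216 295082. How many reads these pairs hold in common was not tested. mt-Nd1, mt-Nd6, mt-Cytb and mt-Atp8 share no window with another gene's transcript. Their differences of 0.20, 0.24, 0.11 and 0.20 lay on both sides of the median of the set. Only annotated transcripts were searched, so a copy outside them would be missed, and these genes are not shown to be free of copies. mt-Atp8 shares 43 bases with mt-Atp6, too few to fill a window. It follows mt-Co2 and runs into mt-Atp6, whose copies Gm28661 and Gm10925 lie close together on chromosome 1. Whether the stretch between these copies holds mt-Atp8 sequence was not tested.

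The nuclear subunit genes were present in every complex, and none of them passed the test between the genotypes. edgeR called 0 of 79 tested genes and found 0 of 79 at an unadjusted p under 0.05 (590 of 20475, 2.88%, over all genes, and 2.81% of those in the members' CPM range), and DESeq2 and limma-voom called 0 as well (0 and 1 at an unadjusted p under 0.05). The smallest p of the set was 0.106, for Ndufs3. The median log2 difference was -0.04, with an interquartile range of -0.08 to 0.04, 31 genes above 0 and 48 below. Of the 79 intervals 75 (94.9%) lay between -1 and 1 on the log2 scale, as did 91.8% of the 5623 tested genes in the range of 26.1 to 268 CPM that holds most nuclear members. The exceptions were Cox6a2, Cox6b2, Cox5a and Uqcrfs1. The libraries of the genotypes did not overlap in 4 of 79 nuclear genes, of which Ndufs3 was above WT in bKO and Ndufa9, Ndufs5 and Cox7a2 were below, against 7.76% of all tested genes (3.68% above WT and 4.07% below) and 7.18% of those of the same CPM range (2.79% above and 4.39% below).

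**Figure D3:**
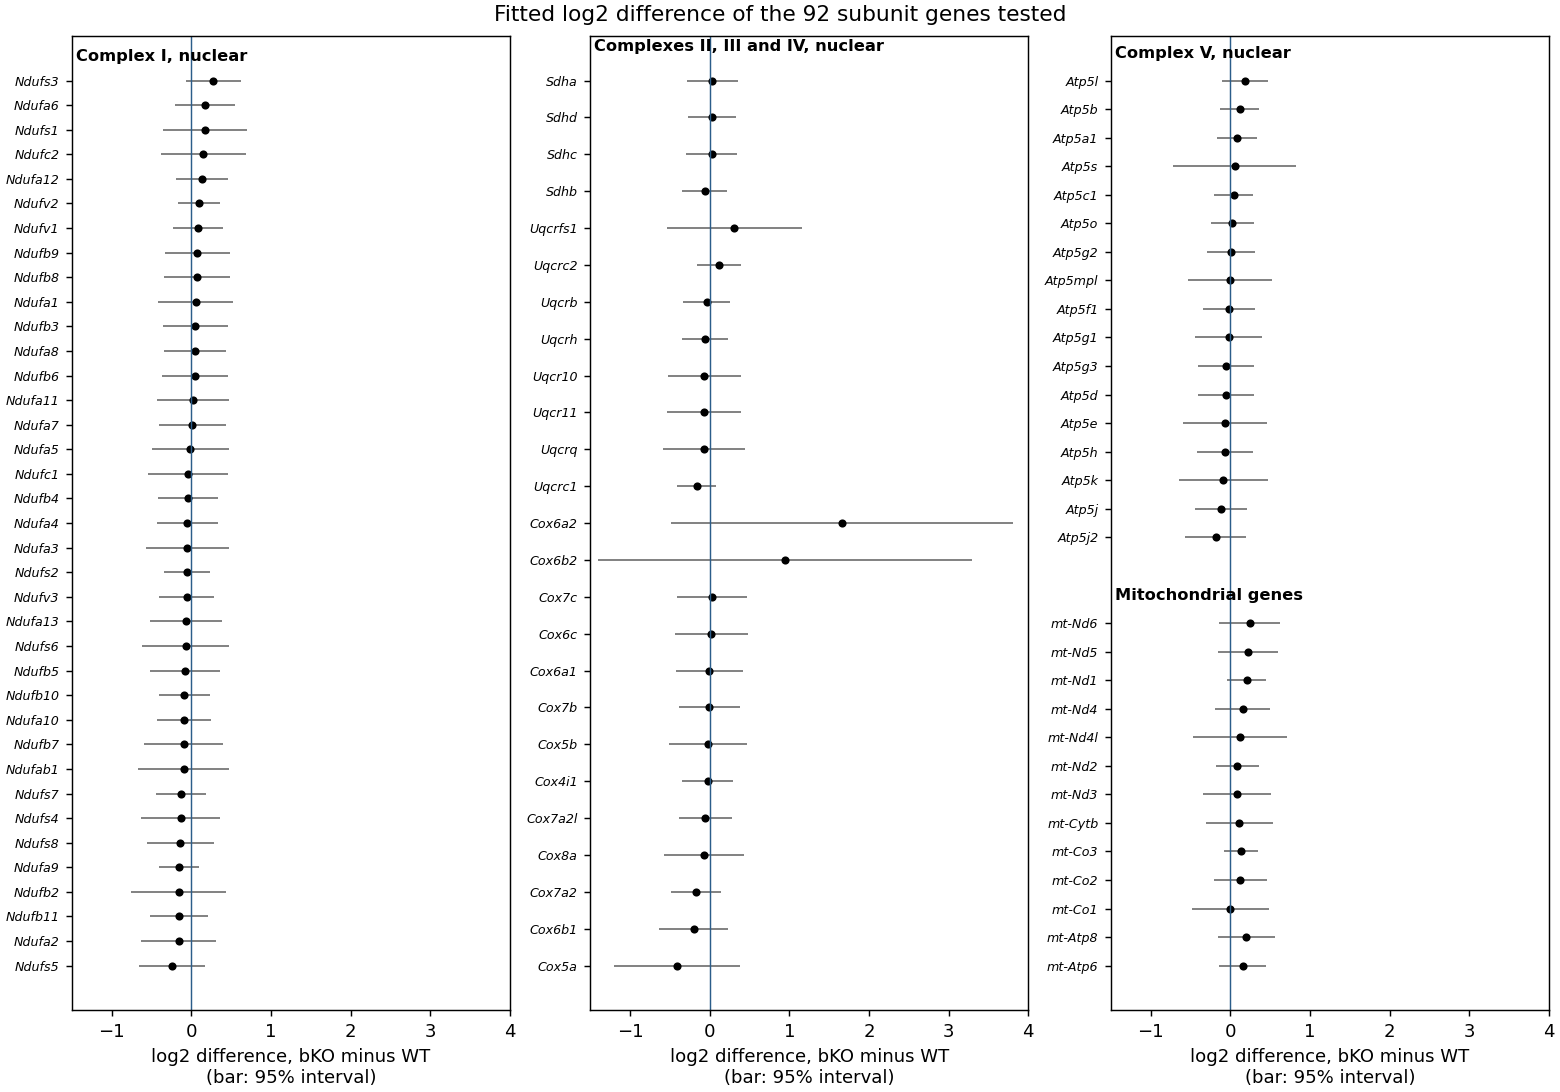
Log2 difference (bKO minus WT) of each tested member with its 95% interval from the edgeR fit, by complex, with a line at 0. The intervals of all 13 mitochondrial genes and 75 of 79 nuclear genes lie between -1 and 1, and Cox6a2 and Cox6b2 have the widest.

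Of the 37 tested nuclear genes of complex I, 15 had a positive and 22 a negative difference, with a median of -0.05 and a range from -0.24 to 0.27. Ndufa6, a small subunit that binds the acyl carrier protein, had the highest level per length, with 379 ± 22.7 TPM in bKO and 340.5 ± 44.8 TPM in WT, and Ndufa3, a small membrane subunit, 242 ± 23.4 TPM in bKO and 253 ± 57.8 TPM in WT. In CPM, Ndufa6 had 170.1, 150.3 and 170.5 CPM in bKO and 129.5, 128 and 178 CPM in WT and a difference of 0.17 (interval -0.20 to 0.55). Ndufa3 had 135, 103 and 118 CPM in bKO and 118, 90.5 and 159.9 CPM in WT and a difference of -0.05. In both genes WT replicate 3 was the highest library and the genotypes overlapped.

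Ndufs3 (chr2:90894634-90904827, minus strand), a core subunit of the peripheral arm, had 35.6, 42.0 and 43.6 CPM in the bKO libraries and 34.3, 34.0 and 31.9 CPM in the WT libraries. All bKO libraries lay above all WT libraries, bKO replicate 1 by a narrow margin, and the difference was 0.27 (SE 0.15, interval -0.07 to 0.62, edgeR adjusted p = 0.9999). Of the windows of Ndufs3 17.9% are shared with other genes, most with the pseudogene Gm12251.

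Ndufa9 (chr6:126821721-126849136, minus strand), a supernumerary subunit at the joint of the arms, had 91.2, 93.5 and 85.05 CPM in the bKO libraries and 105, 99.0 and 97.1 CPM in the WT libraries. Ndufs5 (chr4:123712710-123718202, minus strand), a supernumerary subunit on the intermembrane side, had 32.6, 32.6 and 24.0 CPM in the bKO libraries and 37.0, 34.5 and 34.1 CPM in the WT libraries. Every bKO library of these genes lay below every WT library, with differences of -0.16 (SE 0.11, edgeR unadjusted p = 0.185) and -0.24 (SE 0.18, edgeR unadjusted p = 0.212). Ndufs5 shares 21.7% of its windows with the pseudogene BC002163, whose counts are of like size. Ndufv1, which holds the NADH site and the flavin, had a difference of 0.08 (interval -0.23 to 0.39), and Ndufs1, the largest iron-sulfur subunit, 0.17 (interval -0.35 to 0.69). Ndufa4, named for complex I and since assigned to complex IV, had 109 ± 16.1 CPM in bKO and 113 ± 17.4 CPM in WT, a difference of -0.05.

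Complex II, succinate dehydrogenase, which also belongs to the citrate cycle, showed the narrowest range of differences of the 5 complexes, from -0.07 to 0.03. It also had the fewest genes, 4 against 8 to 37 tested nuclear genes in the others, and a range tends to widen with more genes. Sdha, the flavoprotein that oxidises succinate, had 174, 205 and 164 CPM in bKO and 169, 198 and 164 CPM in WT. Sdhb, the iron-sulfur subunit, had 153, 147 and 131 CPM in bKO and 136, 155 and 160.1 CPM in WT. Sdhd, a membrane anchor, had 89.8, 84.6 and 74.4 CPM in bKO and 84.4, 84.9 and 74.2 CPM in WT. The genotypes overlapped in each of them, and WT replicate 3 was the lowest library for Sdha and Sdhd and the highest for Sdhb. The other anchor, Sdhc, had a difference of 0.02 (interval -0.30 to 0.35). Per length, Sdhb led the complex with 111 ± 7.23 TPM in bKO and 119 ± 8.69 TPM in WT.

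In complex III, which passes electrons from ubiquinol to cytochrome c, 2 genes had a positive and 6 a negative difference, with a median of -0.06. Uqcrh, the hinge protein, had the highest level per length at 299 ± 9.21 TPM in bKO and 317 ± 13.9 TPM in WT, and Uqcrb, a small matrix-side subunit, stood at 168 ± 7.24 TPM in bKO and 175 ± 8.78 TPM in WT. Uqcr10, another small subunit, was not separated from Uqcrb in either genotype, at 165 ± 29.1 TPM in bKO and 176 ± 19.1 TPM in WT. Uqcrc1, a core protein, had 272, 295 and 261 CPM in bKO and 294, 310.5 and 324 CPM in WT. The WT libraries of Uqcrc1 lay above bKO except that bKO replicate 2 just exceeded WT replicate 1, and its difference was -0.17 (SE 0.10, edgeR unadjusted p = 0.152). The other core protein, Uqcrc2, had 119, 127 and 112 CPM in bKO and 106, 122 and 103 CPM in WT and a difference of 0.11 (interval -0.17 to 0.40).

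Uqcrfs1, the Rieske iron-sulfur protein, had 25.6, 13.8 and 13.4 CPM in bKO and 11.2, 11.8 and 19.6 CPM in WT. bKO replicate 1 was the highest library, WT replicate 3 the next, and the difference of 0.31 (interval -0.54 to 1.16) became 0.61 without WT replicate 3 and turned to -0.07 without bKO replicate 1. Uqcrh had a difference of -0.06 and Uqcrb of -0.04.

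In complex IV, cytochrome c oxidase, 4 of 13 tested nuclear genes had a positive and 9 a negative difference, with a median of -0.03. Cox4i1, the largest of the nuclear subunits, led at 435 ± 32.1 TPM in bKO and 450.2 ± 35.8 TPM in WT, the highest level per length of all nuclear members, and Cox6a1 followed at 306 ± 22.6 TPM in bKO and 312 ± 46.5 TPM in WT. In CPM, Cox4i1 had 385, 336 and 392 CPM in bKO and 352, 344 and 439.7 CPM in WT, and Cox6a1 had 225, 187 and 182 CPM in bKO and 188, 163 and 244 CPM in WT. The genotypes overlapped in both, with differences of -0.03 and 0.00, and WT replicate 3 was the highest library.

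Cox7a2 (chr9:79755361-79759878, minus strand), the form of subunit 7a found in most tissues, had 69.6, 68.0 and 68.6 CPM in the bKO libraries and 72.9, 70.8 and 89.4 CPM in the WT libraries. All bKO libraries lay just below all WT libraries, and the gap of -0.18 (SE 0.13) shrank to -0.07 without WT replicate 3. Cox5a, a matrix-side subunit, had 78.1, 40.4 and 30.0 CPM in the bKO libraries and 64.8, 64.1 and 68.8 CPM in the WT libraries. Its WT libraries agreed closely, whereas the bKO libraries spread from the lowest to the highest value of all 6, and the difference was -0.41 (SE 0.33, interval -1.21 to 0.38). Without bKO replicate 1 the difference of Cox5a was -0.91, with an edgeR unadjusted p of 0.00275 and an adjusted p of 0.9998 (0.863 to 0.99999 over all alternatives).

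Subunits of complex IV and Ndufa4 exist in forms that are known from particular tissues, and the libraries of both genotypes held mainly the general forms. Which cells in the libraries gave these reads was not tested. Cox4i2, known from lung and from cells short of oxygen, had 0, 0 and 0 counts in bKO and 0, 0 and 2 counts in WT. The muscle forms Cox7a1 and Cox8b had 23, 5 and 7 counts in bKO and 0, 0 and 15 counts in WT for Cox7a1 and 6, 0 and 0 counts in bKO and 0, 0 and 0 counts in WT for Cox8b. The testis forms Cox7b2 and Cox8c had 0 counts in every library. Ndufa4l2, a gene known to be induced by lack of oxygen, had 3, 1 and 0 counts in bKO and 1, 2 and 4 counts in WT. Their general counterparts Cox4i1, Cox7a2, Cox8a, Cox7b and Ndufa4 averaged 68.7 to 371 CPM in bKO and 75.9 to 378 CPM in WT.

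The isoforms that could be tested were uneven from library to library. Cox6a2, the muscle form of subunit 6a, had 3.02, 8.11 and 3.45 CPM in the bKO libraries and 1.04, 3.33 and 0.248 CPM in the WT libraries. bKO replicate 2 was the highest library and WT replicate 3 the lowest, WT replicate 2 lay within the bKO range, and the difference was 1.66 (SE 0.91, interval -0.49 to 3.81). It was 1.14 without WT replicate 3 and 2.92 without WT replicate 2, where its edgeR unadjusted p was 0.0151 and its adjusted p 0.745 (0.745 to 0.99999 over all alternatives). Cox6a2 overlaps Itgad on the other strand by 70 bases, and the labels do not say whether reads were counted by strand. Cox6b2, the testis form of subunit 6b, had 5.38, 4.48 and 0.539 CPM in bKO and 0.694, 0.818 and 3.89 CPM in WT, high in bKO replicates 1 and 2 and in WT replicate 3 and low in the other 3 libraries. Its difference was 0.94 (interval -1.41 to 3.29) with all libraries and 2.19 without WT replicate 3. The general form Cox6b1 had a difference of -0.20 (interval -0.64 to 0.23) at 108 ± 5.75 CPM in bKO and 124 ± 30.4 CPM in WT.

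In complex V, ATP synthase, 7 of 17 genes had a positive and 10 a negative difference, with a median of -0.02. Atp5e, the epsilon subunit of the central stalk, had the highest level per length at 288 ± 41.1 TPM in bKO and 305 ± 63.0 TPM in WT. Atp5b, the catalytic beta subunit, had 393, 421 and 363 CPM in bKO and 347, 359 and 380.4 CPM in WT, a difference of 0.11. Its partner Atp5a1, the alpha subunit, had 373, 443 and 414 CPM in bKO and 375, 391 and 394 CPM in WT, a difference of 0.08. The genotypes overlapped in both, and bKO replicate 2 was the highest library.

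Atp5l and Atp5j2, the membrane subunits g and f, pointed in opposite directions. Atp5l had 128, 109 and 134 CPM in bKO and 104, 109 and 116 CPM in WT and a difference of 0.18 (SE 0.12), and Atp5j2 had 91.2, 83.8 and 79.7 CPM in bKO and 91.2, 81.5 and 117 CPM in WT and a difference of -0.19 (SE 0.16). In each the genotypes overlapped. The 3 genes of subunit c, which encode the same mature protein of the proton-driven ring, were Atp5g2 at 263 ± 26.1 TPM in bKO and 265 ± 17.5 TPM in WT, Atp5g3 at 141 ± 15.4 TPM in bKO and 149 ± 5.59 TPM in WT and Atp5g1 at 29.5 ± 1.73 TPM in bKO and 30.2 ± 4.86 TPM in WT. In TPM the order Atp5g2, Atp5g3, Atp5g1 was separated by more than the SD in both genotypes. It rests on transcript lengths of 586, 718.5 and 2675.5 bases. In CPM, Atp5g3 had 115 ± 17.5 in bKO and 119 ± 11.5 in WT. Atp5g1 had 89.1 ± 7.17 CPM in bKO and 90.3 ± 20.2 CPM in WT, and the SD of these 2 genes overlapped in WT. The log2 differences between genotypes were 0.01 for Atp5g2, -0.05 for Atp5g3 and -0.02 for Atp5g1. However, Atp5g2 shares 38.3% of its windows with other genes, most with Gm10175, and Atp5g1 and its pseudogene Gm10039 had nearly the same counts.

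Shared sequence also touched the nuclear genes. At least 1 window was shared by 50 of the 85 genes, and 7 shared at least 20%, up to 41.6% for Atp5o, a stalk subunit. Counts could be close where few windows are shared. Atp5g1 shares 6.86% of its windows with Gm10039, and the counts of the pair differed by at most 53 in any library, with 19810 for Atp5g1 and 19879 for Gm10039 over all 6. Atp5l and Gm10221 differed by at most 406, with 25661 for Atp5l and 26471 for Gm10221 over all 6. How many reads these pairs hold in common was not tested. Exons of 30 nuclear members overlap those of another gene.

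Promoters of respiratory genes are known to bind NRF1, ETS family factors such as GABP, and YY1, while JunB acts in AP-1 dimers that bind the letters TGACTCA. RefSeq promoter windows on GRCm38.p6, from 250 bases before to 50 after a start, were at hand for 69 of the 85 nuclear members (74 windows). The letters GCGCA, any base and GCGC (NRF1) on either strand were in 24.3% of the members' windows and in 4.60% of 32851 windows of all genes. CCGGAAG (ETS) on either strand was in 21.6% of the members' windows and 8.86% of all, and AAGATGGCG (YY1) in 9.46% and 1.40%. At least 1 of the 3 was in 47.3% of the members' windows and 13.6% of all. TGACTCA or its reverse complement TGAGTCA was in 6 windows, 8.11% of the members' and 5.20% of all. No pair of these matches overlapped in the members' windows.

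The windows of the complex I genes whose genotypes did not overlap, and of Cox6a1, a member with NRF1 and ETS letters together, show how such matches lie. Capitals mark ETS letters in Ndufs3 (chr2:90904672-90904971, minus strand), AP-1 and then YY1 letters in Ndufa9 (chr6:126849095-126849394, minus strand), NRF1 letters in Ndufs5 (chr4:123718137-123718436, minus strand), and NRF1 letters ahead of ETS letters in Cox6a1 (chr5:115348909-115349208, minus strand). Each window is written along its gene.
Ndufs3: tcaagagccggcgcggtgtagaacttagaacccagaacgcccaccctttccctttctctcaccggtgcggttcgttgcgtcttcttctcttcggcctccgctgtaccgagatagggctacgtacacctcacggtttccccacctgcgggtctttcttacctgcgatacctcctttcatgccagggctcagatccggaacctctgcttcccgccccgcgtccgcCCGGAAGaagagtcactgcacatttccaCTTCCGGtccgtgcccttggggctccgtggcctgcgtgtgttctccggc
Ndufa9: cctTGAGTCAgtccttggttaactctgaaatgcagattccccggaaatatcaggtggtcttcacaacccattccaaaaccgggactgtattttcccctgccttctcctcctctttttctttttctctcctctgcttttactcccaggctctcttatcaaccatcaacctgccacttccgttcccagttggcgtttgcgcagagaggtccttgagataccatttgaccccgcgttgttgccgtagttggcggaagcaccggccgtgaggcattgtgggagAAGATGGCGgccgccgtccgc
Ndufs5: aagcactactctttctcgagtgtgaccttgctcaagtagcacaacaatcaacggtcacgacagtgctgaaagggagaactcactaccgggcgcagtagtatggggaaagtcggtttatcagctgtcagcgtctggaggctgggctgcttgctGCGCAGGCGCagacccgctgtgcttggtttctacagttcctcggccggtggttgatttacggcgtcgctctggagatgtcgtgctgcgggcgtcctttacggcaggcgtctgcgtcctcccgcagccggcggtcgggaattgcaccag
Cox6a1: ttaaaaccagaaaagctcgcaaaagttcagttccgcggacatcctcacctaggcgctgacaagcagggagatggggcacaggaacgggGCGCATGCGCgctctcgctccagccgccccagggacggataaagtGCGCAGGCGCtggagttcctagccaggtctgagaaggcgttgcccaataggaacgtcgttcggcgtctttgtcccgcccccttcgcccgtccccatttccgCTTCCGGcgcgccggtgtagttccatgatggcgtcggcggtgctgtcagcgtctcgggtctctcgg

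The 6 members with AP-1 letters were Ndufa5, Ndufa9, Ndufa13, Uqcrh, Atp5c1 and Atp5g1. Their median difference was -0.04, from -0.16 for Ndufa9 to 0.04 for Atp5c1, against -0.05 for the 60 tested members whose windows lack them. Members with NRF1 letters had a median of 0.00 and those without -0.06, while members with ETS letters had a median of -0.07 and those without -0.04. The 7 members with YY1 letters had a median of -0.13, against -0.03 for the 59 without. All 7 were negative with all libraries, as were 48 of the 79 tested nuclear genes. Without WT replicate 3, 3 of the 7 were negative, at a median of 0.00. Of the 59 members without YY1 letters 12 were then negative, at a median of 0.10. A match says only that the letters are in the window.

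Levels of the nuclear genes spread more between single libraries than between the genotypes. Nuclear subunit genes took 0.847, 0.782 and 0.802% in bKO and 0.787, 0.768 and 0.910% in WT of all counts. WT replicate 3 had the largest share and bKO replicate 1 the next. The median deviation of the 79 genes from their own mean over 6 libraries, on a log2 scale, was 0.09, -0.10 and -0.03 in bKO and -0.05, -0.13 and 0.26 in WT. For the 13 mitochondrial genes it was 0.10, 0.05 and 0.10 in bKO and 0.10, -0.06 and -0.33 in WT. WT replicate 3 was thus the highest library for the nuclear and the lowest for the mitochondrial genes, with a ratio of mitochondrial to nuclear subunit counts of 1.89, 2.10 and 2.08 in bKO and 2.19, 1.996 and 1.38 in WT.

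**Figure D4:**
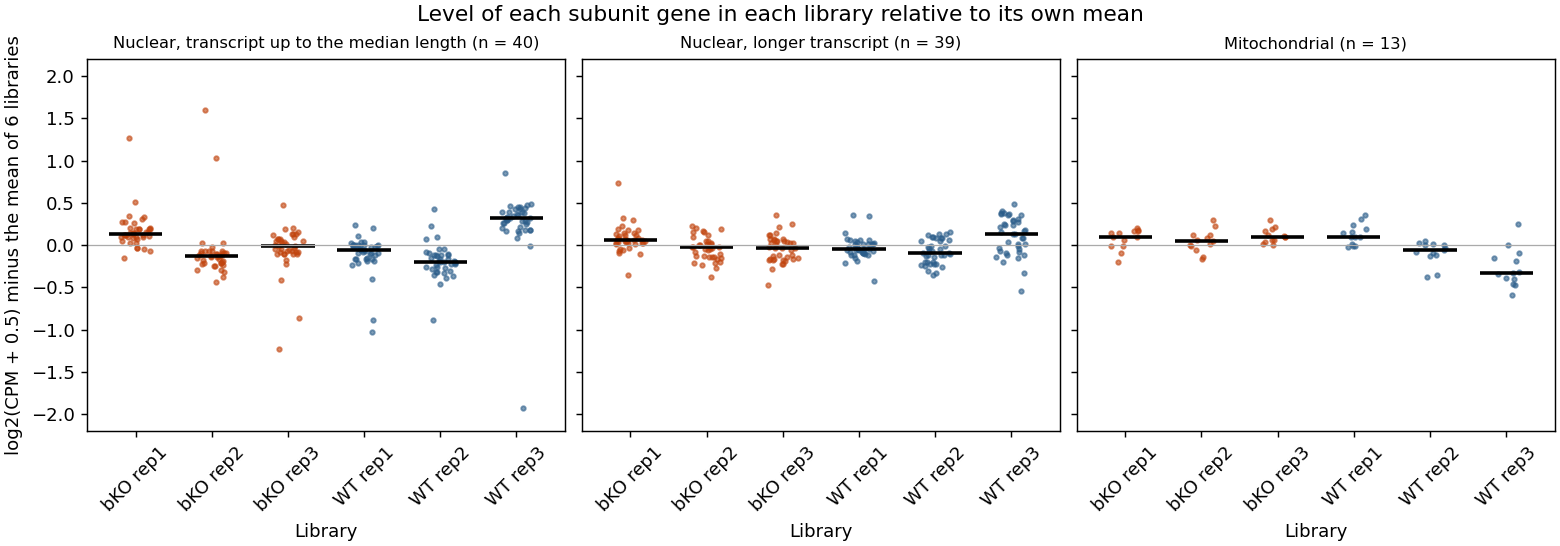
Deviation of each tested member (points) from its own mean over the 6 libraries on the scale of log2(CPM + 0.5), by library, bKO left of WT, with bars at the medians, for 40 short nuclear, 39 longer nuclear and 13 mitochondrial genes. The median in WT replicate 3 is 0.32 for short nuclear, 0.13 for longer nuclear and -0.33 for mitochondrial genes, the farthest from 0 of the 6 libraries in each panel.

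WT replicate 3 was the highest library for 50 of the 79 nuclear genes (63.3%), a place it held in 20.5% of all tested genes and 24.2% of those of the same CPM range. By complex these were 25 of 37 genes in complex I, 1 of 4 in complex II, 5 of 8 in complex III, 9 of 13 in complex IV and 10 of 17 in complex V. Without this library the median difference of the nuclear genes was 0.09 instead of -0.04, with 62 of 79 genes above 0 instead of 31, and edgeR still called 0. Without bKO replicate 2 the nuclear median was 0.03, with 49 of 80 tested genes above 0, so that leaving out either of these libraries turned its sign.

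Transcript length moved with the place of WT replicate 3. Among nuclear members of at most 745 bases, the median over the set, the median deviation in WT replicate 3 was 0.32 (40 genes), against 0.13 in longer members (39 genes). Among other tested genes in the same CPM range it was 0.19 for 170 genes of that length and -0.01 for 4379 longer ones. The median differences between genotypes were -0.05 for the short and -0.02 for the long members, against -0.02 for both classes of other genes. The part of length in the members' values was not tested further.

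The deposited tables carry a number in their names that splits the libraries into 2 sets of 3, and what it stands for is not given. One set holds bKO replicate 2, WT replicate 1 and WT replicate 2, and the other holds bKO replicate 1, bKO replicate 3 and WT replicate 3. In the first set the median difference was -0.00013 for the nuclear genes (39 of 79 above 0) and 0.04 for the mitochondrial genes (9 of 13). In the second it was -0.20 for the nuclear (14 of 79) and 0.42 for the mitochondrial genes (12 of 13). Each within-set value sets 1 library of a genotype against 2 of the other and has no test.

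Levels of other cell types moved between libraries as well. The erythroid sum was 7672, 1632 and 77.0 CPM in bKO and 106, 416 and 2768 CPM in WT, so that bKO replicate 1 and WT replicate 3, the libraries with the largest nuclear subunit shares, also had the largest erythroid sums. The B cell sum was 5163, 6314 and 2811 CPM in bKO and 2352, 8468 and 1920.2 CPM in WT, with its highest values in the libraries bKO replicate 2 and WT replicate 2, which had the smallest nuclear shares. Neither order held over all 6 libraries. bKO replicate 2, next in erythroid sum at 1632 CPM, had a nuclear share of 0.782%. bKO replicate 1, next in B cell sum at 5163 CPM, had a nuclear share of 0.847%. T cell markers were lower on average in bKO in 8 of 8 genes (3983 to 4727 CPM in bKO and 4585 to 5779.6 CPM in WT), conventional CD4 markers higher in 8 of 8 (945 to 1597 CPM in bKO and 901 to 1049.5 CPM in WT), and CD8 and NK markers higher in 7 of 8 (111 to 203 CPM in bKO and 79.1 to 164 CPM in WT). Their part in the subunit values was not tested.

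Genes that build or feed the respiratory chain were read from lists of textbook members. Of 51 assembly factors, 30 had a positive and 21 a negative difference, at a median of 0.05, and edgeR called 0 (smallest unadjusted p = 0.0536). Surf1, an assembly factor of complex IV, had 38.3, 32.8 and 44.7 CPM in bKO and 49.8, 49.7 and 48.9 CPM in WT. All bKO libraries of Surf1 lay below all WT libraries, and the difference was -0.36 (SE 0.15). Of the 51 assembly factors 1 lay below WT without overlap and 2 above, against 4.07% and 3.68% of all tested genes. The 2 above were Cox11 (difference 0.59) and Cox16 (0.20). Coa5 and Cox20, also assembly factors of complex IV, had differences of 0.36 (interval -0.12 to 0.83) and 0.28 (interval -0.14 to 0.69), and overlapped.

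The 22 electron carriers and further subunits divided evenly (11 and 11, median 0.00, 0 called). Pdss2, which makes the side chain of ubiquinone, had 5.43, 3.94 and 6.28 CPM in bKO and 9.17, 8.62 and 6.99 CPM in WT, without overlap, and a difference of -0.66 (SE 0.30, edgeR unadjusted p = 0.0654). Of the 22 genes 1 lay below WT without overlap and 0 above, against 4.07% and 3.68% of all tested genes. Gpd2, the mitochondrial glycerol-3-phosphate dehydrogenase, had a difference of 0.36 (interval -0.14 to 0.86), and Cyc1, the cytochrome c1 of complex III, -0.43 (interval -1.03 to 0.18).

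Genes that transcribe and handle mitochondrial RNA had 16 positive and 14 negative differences, at a median of 0.02, and 0 were called. Fastkd2, needed for processing of mitochondrial RNA, had 21.6, 23.0 and 23.0 CPM in bKO and 16.1, 14.5 and 20.2 CPM in WT. Every bKO library of Fastkd2 lay above every WT library, with a difference of 0.41 (SE 0.20, edgeR unadjusted p = 0.0768). Of the 30 genes 2 lay above WT without overlap and 0 below, against 3.68% and 4.07% of all tested genes. Mterf1b, of the family of mitochondrial termination factors, also did not overlap, at 15.8 ± 1.40 CPM in bKO and 12.4 ± 2.57 CPM in WT, and has a near paralog, Mterf1a, with which it can share reads. Grsf1, a protein of mitochondrial RNA granules, had a difference of 0.32 (interval -0.26 to 0.89).

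Of 19 nuclear regulators of respiration genes 15 were tested, with 6 positive and 9 negative differences, a median of -0.03 and 0 called. Hif1a, which shifts cells from respiration to glycolysis when oxygen is short, had 68.3, 92.2 and 86.5 CPM in the bKO libraries and 133, 119.9 and 107 CPM in the WT libraries. All bKO libraries lay below all WT libraries, with a difference of -0.54 (SE 0.16, interval -0.91 to -0.17, edgeR unadjusted p = 0.0105, adjusted p = 0.9999). It was the only gene of the 5 lists at an edgeR unadjusted p under 0.05 (with limma-voom, Surf1 also passed, at 0.0492), where 1.48% of all tested genes stood with a lower level in bKO. Myc, a driver of mitochondrial biogenesis genes, had 97.7, 94.4 and 93.6 CPM in bKO and 80.1, 85.7 and 69.7 CPM in WT, without overlap, and a difference of 0.28 (edgeR unadjusted p = 0.056). Of the 15 tested regulators 1 lay above WT without overlap and 1 below, against 3.68% and 4.07% of all tested genes. Hcfc1, a cofactor of such factors, had a difference of -0.24 and overlapped. Ppargc1a, Esrrb, Esrrg and Ppara did not pass the filter.

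The citrate cycle and pyruvate entry, which supply the electrons, had 17 positive and 11 negative differences among 28 of 29 genes tested, with a median of 0.04 and 0 called. Idh3a, a catalytic subunit of the NAD-linked isocitrate dehydrogenase, had 55.2, 58.8 and 55.6 CPM in bKO and 59.7, 79.5 and 69.7 CPM in WT. All bKO libraries of Idh3a lay below all WT libraries (difference -0.30, SE 0.14, edgeR unadjusted p = 0.0729). Of the 28 tested genes 1 lay below WT without overlap and 0 above, against 4.07% and 3.68% of all tested genes. Pdhb, a subunit of pyruvate dehydrogenase, and Pdk1, a kinase that inhibits it, had differences of 0.25 (SE 0.16) and 0.35 (SE 0.27), and overlapped.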

How the data were processed

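For each of the 6 libraries the authors deposited raw counts of reads for 53379 Ensembl identifiers. Per the labels' protocols, RNA was extracted with RNeasy, treated with DNase and made into libraries with SMARTer ultra low input and NEBNext ChIP-Seq kits, and read as single 50-base reads with 6 libraries to a lane. The tools were bcl2fastq (2.19.0.316), STAR (2.3) and featureCounts, and the build was mm10, per the processing notes of the submitters, which give no roles. No annotation release, counting option or strand setting was given in the sources used here. Without molecular identifiers in the labels, PCR copies of a molecule may be counted more than once, and intervals carry the spread between libraries and not the animals' variation as such.

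Symbols, positions and transcript lengths (the median over basic protein-coding transcripts) were taken from GENCODE M21 (GRCm38): 53274 identifiers matched without version and 105 did not. Totals were 33784183 to 41231173 counts per library, and 25697 to 26438 genes had a count. No 2 libraries agreed within sampling noise (chi-square per degree of freedom at least 35.8).

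Counts were filtered with filterByExpr, scaled by TMM and fitted in edgeR 4.0.16 under R 4.3.3 by robust quasi-likelihood on genotype alone. The F test was two-sided, and p-values were adjusted by Benjamini-Hochberg over all 20475 genes at a threshold of 0.05. Log2 differences are bKO minus WT, with 95% intervals from the F statistic. CPM use TMM library sizes, TPM the transcript lengths, and both are given as mean ± SD over 3 libraries. Deviations by library use log2(CPM + 0.5). DESeq2 1.42.0 and limma-voom 3.58.1 were alternatives, DESeq2 giving an adjusted p for 23198 genes and none for 9731. Further alternatives were RLE factors, library totals, library sizes without the mitochondrial chromosome and its copies, no filter, a filter of 1 CPM in 3 libraries, the replicate number as a block, the set of libraries as a term, and each library left out. The fits were tested on simulated counts. Shared sequence was measured as exact 50-base windows of a gene's transcripts found in another gene's transcripts on either strand.

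The members, the 5 related lists (153 entries, of which Suv3 and Prorp had no match and 146 were tested) and the 7 marker lists were chosen with earlier results of these data known. Genes named were Junb, all mitochondrial members, in each complex the 2 nuclear members of highest level per length and the 3 of smallest p, nuclear members whose genotypes did not overlap, tissue isoforms with their general counterparts, the 3 subunit c genes, and the 3 genes of smallest p in each related list. Others (Ndufv1, Ndufs1, Sdhc, Atp5a1, Atp5o, Uqcr10 and the genes with AP-1 letters) were added after their values were seen. No amino acid sequence is given.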

Additional observations from a re-analysis of the deposited data

How the results depend on the processing

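The counts of called genes were 0 for the nuclear and 0 for the mitochondrial members under all 15 alternatives, and 0 over all tested genes except with DESeq2, which called 63, none of them a member. The median difference of the mitochondrial genes stayed above 0 under each of the alternatives, at 0.13 to 0.20 with all libraries in the fit, and ranged from 0.05 (without WT replicate 3) to 0.25 (without WT replicate 1) when a library was left out. The nuclear median was -0.10 to -0.02 with all libraries and -0.11 (without bKO replicate 1) to 0.09 (without WT replicate 3) with a library left out, and also above 0, at 0.03, without bKO replicate 2, so its sign is not settled. The difference in share of counts was 0.131 percentage points for the mitochondrial genes. With a library left out it ranged from 0.00714 (without WT replicate 3) to 0.241 (without WT replicate 1). It was 0.226 of protein-coding counts, 0.376 in the set that holds bKO replicates 1 and 3 and WT replicate 3, and 0.0109 in the other set. For the nuclear genes it was -0.0117, from -0.0385 to 0.0326 with a library left out, -0.0858 in the first of these sets and 0.00392 in the other. Of 885 alternative values of 59 named genes, 881 stayed within their spread on the same side of the threshold, 46 changed sign (18 of these without WT replicate 3), and Junb passed with DESeq2.

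Replicate numbers did not pair the libraries (correlations of deviations -0.095, 0.19 and 0.035 for numbers 1, 2 and 3). With the replicate number as a block, 0 members were called and the medians were -0.02 for the nuclear and 0.16 for the mitochondrial genes. The spread between 3 libraries a genotype limits what could be called. Counts of 5 mitochondrial genes cannot be told from those of nuclear copies, and mt-Nd4 and mt-Co1 share 62.2% and 51.1% of their windows. The counts of Atp5g1 and Atp5l are close to those of pseudogenes.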
